A study of Populus alba x Populus glandulosa with 18 samples.

Results

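The bark domain (BA) of poplar stems that overexpress *DET2* was compared with that of wild-type trees across the whole transcriptome. The comparison rests on 6 of the 18 RNA-seq libraries of the series, 3 of 84K and 3 of *PagDET2*-OE, taken by the tissue and genotype in their labels. 84K is the hybrid *Populus alba* × *P. glandulosa*, and *PagDET2*-OE trees are 84K trees that carry the *PagDET2* coding sequence under the 35S promoter in the vector pCAMBIA1300. That promoter drives expression in most cell types, so the transgene is not limited to the bark or the cambium. The trees were 2 months old and grown in a greenhouse under long days. The labels call the tissue cambium, whereas the study's methods describe bark of the fifth to the twelfth internode, peeled with differentiating phloem and the cambium zone. The labels do not say which transgenic line a library came from, so the effect of a line cannot be told apart from that of overexpression. Separate trees of each genotype are mentioned in the study's text, but no label ties a library to a tree or line, and p-values measure only the spread between these libraries. The other 12 libraries cover the stem tip with the young internodes (PS) and the xylem (XY) of the same genotypes, and they enter only where BA is set against them.

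Brassinosteroids are plant steroid hormones made from campesterol, and DET2 is the steroid 5α-reductase of an early step of that route. The hormone binds a receptor kinase at the cell surface, which leads to inactivation of the kinase BIN2 and frees the transcription factors BZR1 and BES1 to act on their target genes. In stems these hormones are known to promote cell division and expansion in the cambium and the differentiation of xylem. The vascular cambium divides to give phloem on the bark side and xylem on the wood side, and bark can hold lignified phloem fibres as well.

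The transgene was built from the full coding sequence, amplified by the study with a primer pair whose ends mark the start and the stop of the open reading frame. They are shown because they define which sequence was overexpressed. Both are written from their 5′ end, with the start codon of the forward primer and the complement of the stop codon of the reverse primer in capitals.
DET2-SF: ATGgccctattagatcagagcctctt
DET2-SR: TCAacacagaaaagggatcactgct
The gene they belong to is Potri.016G110600, at chr16:11305579-11306422 of the *P. trichocarpa* genome to which the authors aligned all reads. Transgene reads and endogenous reads fall on 1 gene model and were counted together.

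*DET2* itself checks the labels. Its normalised read count, scaled to library size and given as CPM throughout, was 7.97, 6.84 and 7.15 CPM in 84K and 2508, 2632 and 2639 CPM in *PagDET2*-OE. The groups were far apart (log2 fold change 8.47, SE 0.06, adjusted p = 6.02e-18, edgeR quasi-likelihood test with Benjamini-Hochberg adjustment, as for every adjusted p here). The other *DET2* model, Potri.005G047800, had 0 counts in all 6 libraries, which allows up to 3 counts in each library.

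Library totals in BA ranged from 8407928 to 11379931 counts in 84K and from 9117827 to 9680016 in *PagDET2*-OE. Replicate 3 of both genotypes stood apart from replicates 1 and 2. The chi-square of gene counts per degree of freedom was 2.28 between 84K replicates 1 and 2 and 2.29 between *PagDET2*-OE replicates 1 and 2, but 4.60 to 4.74 and 6.06 to 6.11 for the pairs with replicate 3. No libraries were duplicates by this measure. The tissue label was checked against summed FPKM (fragment counts scaled by gene length and library size) of marker genes. Markers of the cambium zone (*WOX4*, *PXY*, *ATHB8* and *ANT*, 11 gene models) summed to 904 to 944 FPKM in 84K BA, above the 658 to 699 of 84K XY and the 312 to 325 of 84K PS. Those of sieve elements and companion cells (*SUC2*, *APL*, *GSL7* and *PP2-A1*, 9 models) summed to 786 to 800.1 FPKM in 84K BA, again above XY (467 to 494) and PS (79.3 to 85.8). The 68 models that mark differentiating xylem summed to 827 to 880.3 FPKM in 84K BA against 21867 to 22767 in 84K XY. Epidermis markers were low in 84K BA (6.23 to 9.02), below 84K XY (13.2 to 15.3) and 84K PS (194 to 208). Cork markers were low in 84K BA too (8.12 to 9.90), where their range met that of 84K XY (7.25 to 8.14) and lay below 84K PS (23.3 to 26.6). Neither list set BA apart from XY as the higher. Of the epidermis and cork models, 9 of 28 and 6 of 18 had no count in any BA library.

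Between genotypes, the ranges of these sums overlapped for the cambium zone (892 to 944 FPKM in *PagDET2*-OE), the epidermis (7.04 to 8.34) and cork (6.10 to 8.83). The sieve element and companion cell sum also overlapped as FPKM (797 to 813 in *PagDET2*-OE). Summed as CPM, the same 9 models did not overlap, at 1559 to 1596 in 84K and 1610 to 1700 in *PagDET2*-OE. The xylem sum did not overlap. It was 703 to 733 FPKM in *PagDET2*-OE, below every 84K library. Its members did not all move this way. At an adjusted p of at most 0.05, 18 of the 44 tested were lower, 6 higher and 20 neither. In bulk tissue, fewer cells of a type and less RNA per cell cannot be told apart.

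**Figure D1:**
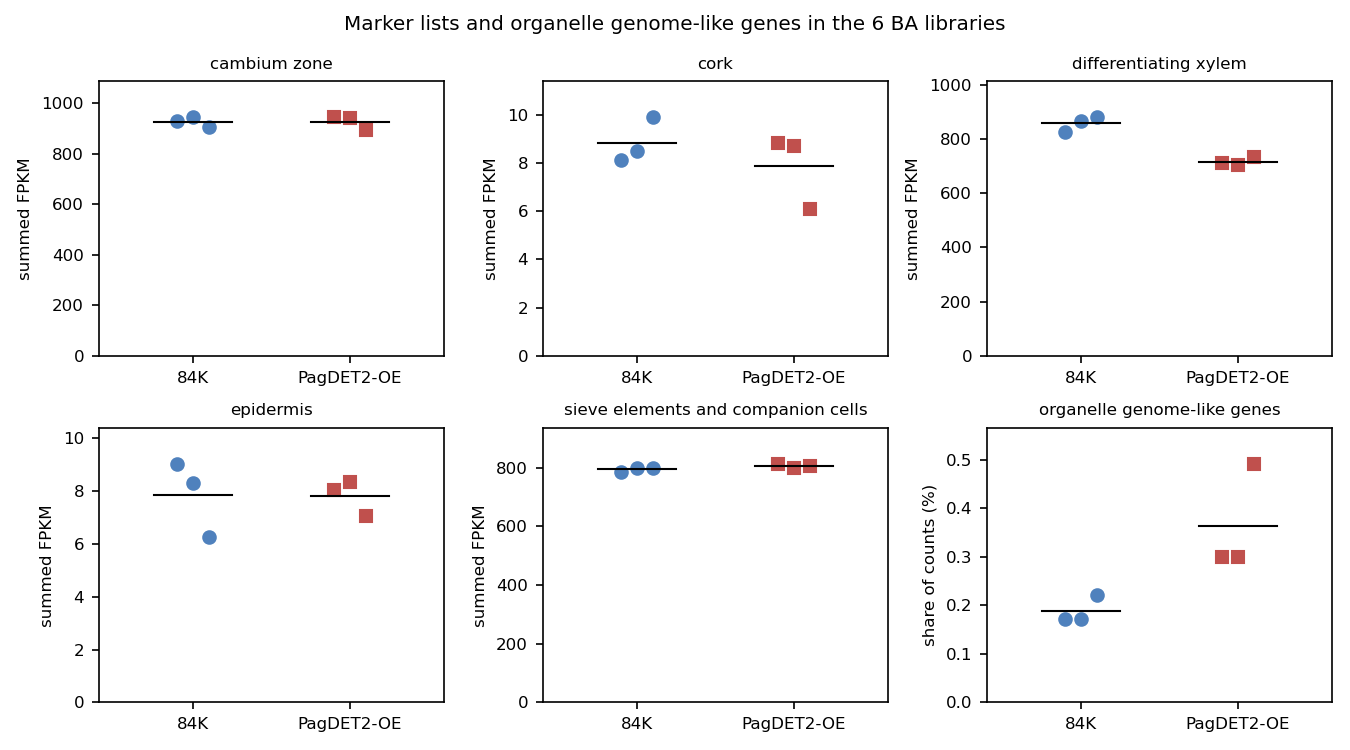
Summed FPKM of 5 marker lists and the share of counts on organelle genome-like genes (percent) in each of the 6 BA libraries, with points for libraries and a line for the mean. The xylem sum is lower in all 3 *PagDET2*-OE libraries, and the organelle genome-like share is higher in them and highest in replicate 3.

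After the filter on low counts 23651 genes remained in BA, of which 1465 (6.19%) had higher and 1263 (5.34%) lower levels in *PagDET2*-OE at an adjusted p of at most 0.05. A gene is called higher or lower below by that threshold alone. Those that also changed at least 2-fold (differentially expressed genes, DEGs) numbered 211 higher (0.892% of genes tested) and 83 lower (0.351%). The groups did not overlap at 7468 genes (31.6%), and at all 294 DEGs. Low expression was common among DEGs, since 134 of the 211 higher and 63 of the 83 lower had a mean under 5 CPM. Without 1 library the number of DEGs ranged from 227 to 342, and the number of genes higher or lower from 1435, without 84K replicate 2, to 2817, without *PagDET2*-OE replicate 3.

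The largest changes were ranked among DEGs with a mean of at least 5 CPM and no overlap between genotypes. Separated libraries are thus part of the rule. The largest increases, apart from *DET2*, included an HXXXD-type acyltransferase, a kinase-related protein and a *BEE3* copy. The acyltransferase Potri.016G112400 (chr16:11558564-11562519), of a family that transfers acyl groups from coenzyme A, was at 2.74, 3.47 and 3.97 CPM in 84K and 22.8, 20.1 and 22.9 CPM in *PagDET2*-OE (log2 fold change 2.67, SE 0.15, adjusted p = 3.43e-07). The lowest *PagDET2*-OE library lay several times above the highest 84K library. The kinase-related Potri.003G063300 had 48.1, 45.3 and 49.3 CPM in 84K and 256, 247 and 317 CPM in *PagDET2*-OE (log2 fold change 2.52, SE 0.09, adjusted p = 8.3e-08). By the rule, all 3 *PagDET2*-OE libraries were above every 84K library here too. A MYB gene of the *MYB62* type (1.81), the nitrate transporter gene *NRT1.5* (2.02) and 4 models with no description (log2 fold changes 1.90 to 2.53) were also among the 10 largest.

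Among the 10 largest falls by the same rule, a polyketide cyclase-type protein, Potri.004G020000, had 28.2, 30.3 and 26.6 CPM in 84K and 4.35, 3.69 and 3.09 CPM in *PagDET2*-OE (log2 fold change -2.93, SE 0.14, adjusted p = 8.3e-08). The β-glucosidase gene *BGLU32* stood at 11.7, 11.3 and 13.9 CPM in 84K and 0.653, 1.03 and 0.852 CPM in *PagDET2*-OE (log2 fold change -3.84, SE 0.22, adjusted p = 4e-07). By the rule, no library of one genotype reached the values of the other at either gene. Of the others, a gene for a Ran-binding zinc finger protein (Potri.003G061300, -2.26), *PNP-A*, which encodes a secreted natriuretic-like peptide (-2.23), and *MLP31* of the major latex proteins (-2.15) fell by more than 2 on the log2 scale. *KAT2*, an inward potassium channel known from guard cells and phloem, followed with 33.4, 34.2 and 28.3 CPM in 84K and 8.60, 9.44 and 11.3 CPM in *PagDET2*-OE (log2 fold change -1.71, SE 0.13, adjusted p = 3.66e-06).

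Genes were then grouped by Arabidopsis symbol and description into 33 functional lists. At every called member of a list the genotypes did not overlap. Separation of the libraries, where given below for a called gene, therefore adds nothing to the call. Each list is described by its members called, beside the background of 6.19% higher and 5.34% lower over the whole transcriptome, and by its median log2 fold change, beside a median of 0.00 for all genes tested.

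**Figure D2:**
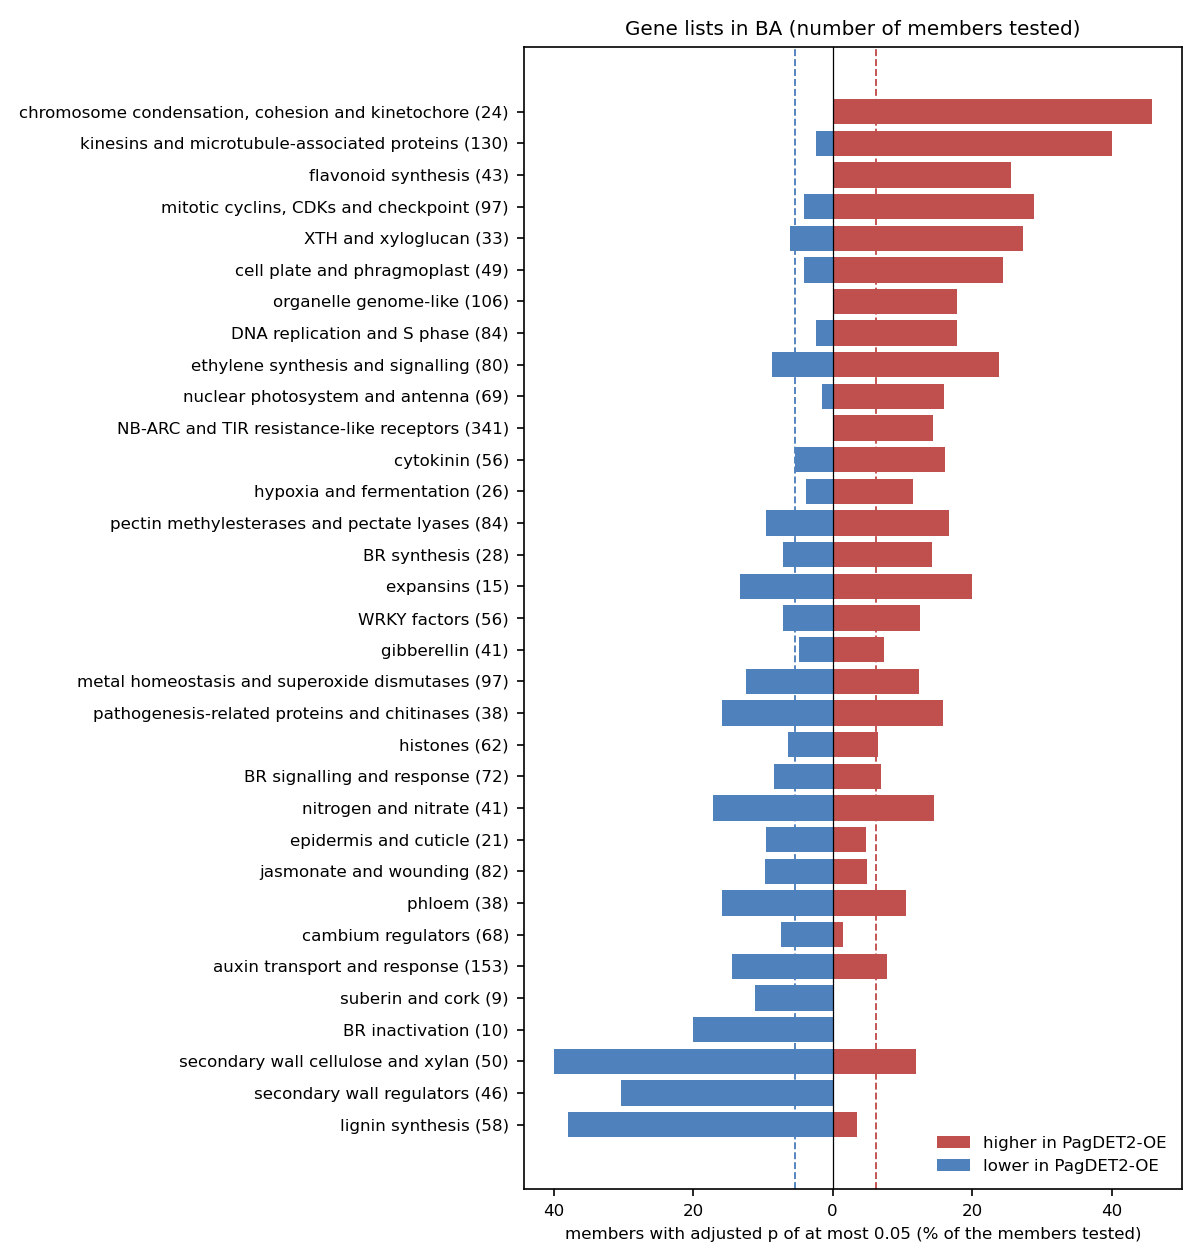
Share of the tested members of each list (percent) that were higher or lower in *PagDET2*-OE at an adjusted p of at most 0.05, with the number of members tested in brackets and the shares over all genes tested for reference. The lists for kinesins (52 of 130 higher) and chromosome condensation (11 of 24 higher) reach farthest to the higher side, and those for lignin (22 of 58 lower) and cellulose and xylan of the secondary wall (20 of 50 lower) to the lower side.

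Brassinosteroid genes changed in small numbers on both sides. Of 28 tested genes of sterol and brassinosteroid synthesis, 4 were higher, *DET2* among them, and 2 lower. The higher count was 8 without 84K replicate 3 and 2 without 84K replicate 1 or 2 or *PagDET2*-OE replicate 1 or 2. *CAS1*, which makes the sterol precursor cycloartenol, was at 5.12, 4.56 and 4.59 CPM in 84K and 11.9, 10.3 and 10.5 CPM in *PagDET2*-OE (log2 fold change 1.20, SE 0.15, adjusted p = 0.000222). *CPD*, annotated as *CBB3* (Potri.010G189800), a cytochrome P450 of a later step that brassinosteroids are known to repress in Arabidopsis, was at 19.9, 20.8 and 23.7 CPM in 84K and 12.95, 11.4 and 14.1 CPM in *PagDET2*-OE (log2 fold change -0.75, SE 0.12, adjusted p = 0.00127). *CAS1* was higher and *CPD* lower in every *PagDET2*-OE library than in any of 84K. The inactivation list held 2 lower and 0 higher of 10 genes, *BAS1*, a P450 that hydroxylates active brassinosteroids (-0.40, adjusted p = 0.00286), and *BEN1*, a reductase-like gene (-0.32, adjusted p = 0.0129, and 0.0521 without 84K replicate 2). Summed over its 10 genes, the inactivation list stood at 198 to 217 CPM in 84K and 164 to 169 CPM in *PagDET2*-OE.

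Among 72 genes of brassinosteroid signalling and response, 5 were higher, 6 lower and the median was -0.06. *BEE3*, a bHLH factor named for its early induction by brassinosteroids in Arabidopsis, had 2 copies among them. Potri.012G055700 (chr12:5729189-5730752) was at 11.5, 9.02 and 10.6 CPM in 84K and 50.6, 52.9 and 47.8 CPM in *PagDET2*-OE (log2 fold change 2.28, SE 0.10, adjusted p = 4.22e-08), and Potri.004G099400 at 2.26, 1.78 and 2.21 CPM in 84K and 6.10, 6.05 and 5.32 CPM in *PagDET2*-OE (log2 fold change 1.48, SE 0.21, adjusted p = 0.000458). *ARGOS*, a small protein that promotes organ growth, stands in this list and in that of auxin, and counts in both. It was also higher, at 13.6, 12.9 and 13.5 CPM in 84K and 33.5, 32.8 and 32.3 CPM in *PagDET2*-OE (adjusted p = 2.97e-06). The transcription factor gene *BZR1* was lower by a small amount, with 94.6, 96.4 and 97.1 CPM in 84K and 77.6, 77.3 and 83.7 CPM in *PagDET2*-OE (log2 fold change -0.27, SE 0.06, adjusted p = 0.014). It did not pass without 84K replicate 2 (adjusted p = 0.0606), *PagDET2*-OE replicate 1 (0.0607) or *PagDET2*-OE replicate 2 (0.0651).

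Genes of the dividing cell were higher in several lists. Among 130 kinesins and microtubule-associated proteins, 52 were higher, 13 of them DEGs, and 3 were lower, with a median of 0.24. In the list of mitotic cyclins, cyclin-dependent kinases and checkpoint proteins 28 of 97 were higher and 4 lower (median 0.17). Chromosome condensation, cohesion and kinetochore genes were higher at 11 of 24 and lower at 0 of 24 (median 0.38), although this count fell to 5 without 84K replicate 1 and to 6 without 84K replicate 2. For the cell plate and phragmoplast the counts were 12 higher and 2 lower of 49, and for DNA replication and S phase 15 higher and 2 lower of 84. The higher cell plate genes numbered 7 without 84K replicate 2, and the higher replication genes 6 without 84K replicate 1 and 8 without 84K replicate 2. Most changes were below 2-fold: the replication list had 0 DEGs in BA.

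Motor proteins of the spindle and of the phragmoplast, the microtubule array that lays down the new wall, were among the called kinesins. *KATA*, a minus-end-directed kinesin of spindle and phragmoplast, was at 21.5, 20.3 and 21.5 CPM in 84K and 38.3, 40.2 and 50.6 CPM in *PagDET2*-OE (log2 fold change 1.03, SE 0.11, adjusted p = 4.8e-05). A second kinesin DEG, Potri.006G082900, annotated as an ATP-binding microtubule motor, was at 23.6, 24.1 and 24.5 CPM in 84K and 48.0, 43.3 and 58.8 CPM in *PagDET2*-OE (log2 fold change 1.06, SE 0.11, adjusted p = 4.21e-05). All 3 *PagDET2*-OE values of both genes were above all 84K values, and replicate 3 was the highest. *POK2* and *POK1*, kinesins that guide the phragmoplast to the division site, behaved alike in their means but varied more. *POK2* was at 82.6, 86.3 and 97.3 CPM in 84K and 182, 181 and 267 CPM in *PagDET2*-OE (log2 fold change 1.24, SE 0.19, adjusted p = 0.0161) and *POK1* at 40.5, 36.3 and 47.7 CPM in 84K and 78.7, 79.2 and 122 CPM in *PagDET2*-OE (log2 fold change 1.17, SE 0.22, adjusted p = 0.0343). Without 84K replicate 1 their adjusted p-values were 0.067 and 0.118, and without 84K replicate 2 they were 0.0674 and 0.0997, so that neither passed; for *POK1* the value without 84K replicate 3 was 0.0644. *TPX2*, which nucleates spindle microtubules, had a log2 fold change of 1.03 (adjusted p = 0.00073), and the α-tubulin gene *TOR2*, the most abundant member at 1290.3, 1324 and 1472 CPM in 84K and 1354, 1361 and 1492 CPM in *PagDET2*-OE, did not pass (adjusted p = 0.689).

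Chromosome genes followed. Both *TOPII* copies, which encode the topoisomerase that untangles sister chromatids, were DEGs: Potri.001G264000 at 30.5, 28.6 and 30.2 CPM in 84K and 57.4, 56.8 and 72.8 CPM in *PagDET2*-OE (log2 fold change 1.07, SE 0.10, adjusted p = 2.08e-05) and Potri.009G058900 with a log2 fold change of 1.04 (SE 0.10). *SMC2*, a condensin subunit, was at 16.7, 20.7 and 16.6 CPM in 84K and 34.6, 33.9 and 43.1 CPM in *PagDET2*-OE (log2 fold change 1.05, SE 0.12, adjusted p = 0.000108). Outside the list of chromosome genes, *PS1*, a forkhead-associated protein known for spindle orientation in Arabidopsis pollen formation, was at 20.3, 21.4 and 17.3 CPM in 84K and 48.8, 44.2 and 56.9 CPM in *PagDET2*-OE (log2 fold change 1.35, SE 0.11, adjusted p = 9.64e-06). In each of these genes the 2 genotypes were separated. *SMC3* of the cohesin ring was higher at Potri.017G083200 (log2 fold change 0.72, adjusted p = 0.00415) and Potri.009G155200 (log2 fold change 0.42, adjusted p = 0.0417). The latter did not pass without 84K replicate 1 (adjusted p = 0.137), 84K replicate 2 (0.133) or *PagDET2*-OE replicate 1 (0.0598). The remaining DEG of the list, *DYAD*, had 0.357, 0.793 and 0 CPM in 84K and 1.31, 1.54 and 2.02 CPM in *PagDET2*-OE (log2 fold change 2.09, SE 0.60, adjusted p = 0.042). *DYAD* did not pass without 84K replicate 1 (adjusted p = 0.144), 84K replicate 3 (0.0698) or any single *PagDET2*-OE library (0.0754 to 0.0997).

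Of the cell cycle regulators, *CYCB1;4*, a mitotic cyclin, was the only higher DEG, at the low level of 1.55, 1.68 and 1.06 CPM in 84K and 4.35, 3.80 and 4.05 CPM in *PagDET2*-OE (log2 fold change 1.51, SE 0.25, adjusted p = 0.0017). *CDKB2;1*, the plant-specific mitotic kinase, was at 42.4, 41.1 and 37.8 CPM in 84K and 66.5, 66.8 and 61.6 CPM in *PagDET2*-OE (log2 fold change 0.69, SE 0.08, adjusted p = 7.77e-05). Both were higher in all 3 *PagDET2*-OE libraries. *CYCB3;1* (0.99), *CDC20.1*, an activator of the anaphase-promoting complex (0.96), and the B-type cyclin *CYC1BAT* (0.79) were higher too. *CDC2*, the kinase used throughout the cycle and the most abundant member of the list, was at 139.8, 135.3 and 138 CPM in 84K and 118, 129 and 121 CPM in *PagDET2*-OE and did not pass (adjusted p = 0.086). *CYCD1;1*, a cyclin of the entry into the cycle, was the lower DEG at under 2 CPM (-1.31, adjusted p = 0.0377), and it failed to pass in each of the 6 fits that left out 1 library (adjusted p-values from 0.0633 to 0.139).

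At the cell plate, both copies of *KN*, the syntaxin *KNOLLE* of cytokinesis, were higher. Potri.013G053200 was at 38.6, 46.2 and 35.2 CPM in 84K and 69.0, 71.8 and 60.6 CPM in *PagDET2*-OE (log2 fold change 0.75, SE 0.10, adjusted p = 0.00045) and Potri.019G030800 at 19.6, 19.6 and 15.9 CPM in 84K and 31.1, 28.5 and 29.0 CPM in *PagDET2*-OE (log2 fold change 0.69, SE 0.11, adjusted p = 0.000877). *CSLD5*, a cellulose synthase-like protein of the cell plate, was higher at Potri.002G200300 (1.01) and Potri.014G125100 (0.79). The *VAMP726* gene, a vesicle protein and the most abundant member, was lower (-0.44, adjusted p = 4.59e-05). In DNA replication, *MCM3* (0.47, adjusted p = 0.00201) and *MCM2* (0.35, adjusted p = 0.00569) of the replicative helicase and *ICU2*, a DNA polymerase α subunit (0.62, adjusted p = 0.000769), were higher, whereas *POLD4*, a small subunit of DNA polymerase δ, was lower (-0.58, adjusted p = 0.000266). Histone genes moved in both directions, 4 higher and 4 lower of 62. The 2 linker histone *HIS1-3* copies were among the lower (log2 fold changes -0.55 and -0.66).

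**Figure D3:**
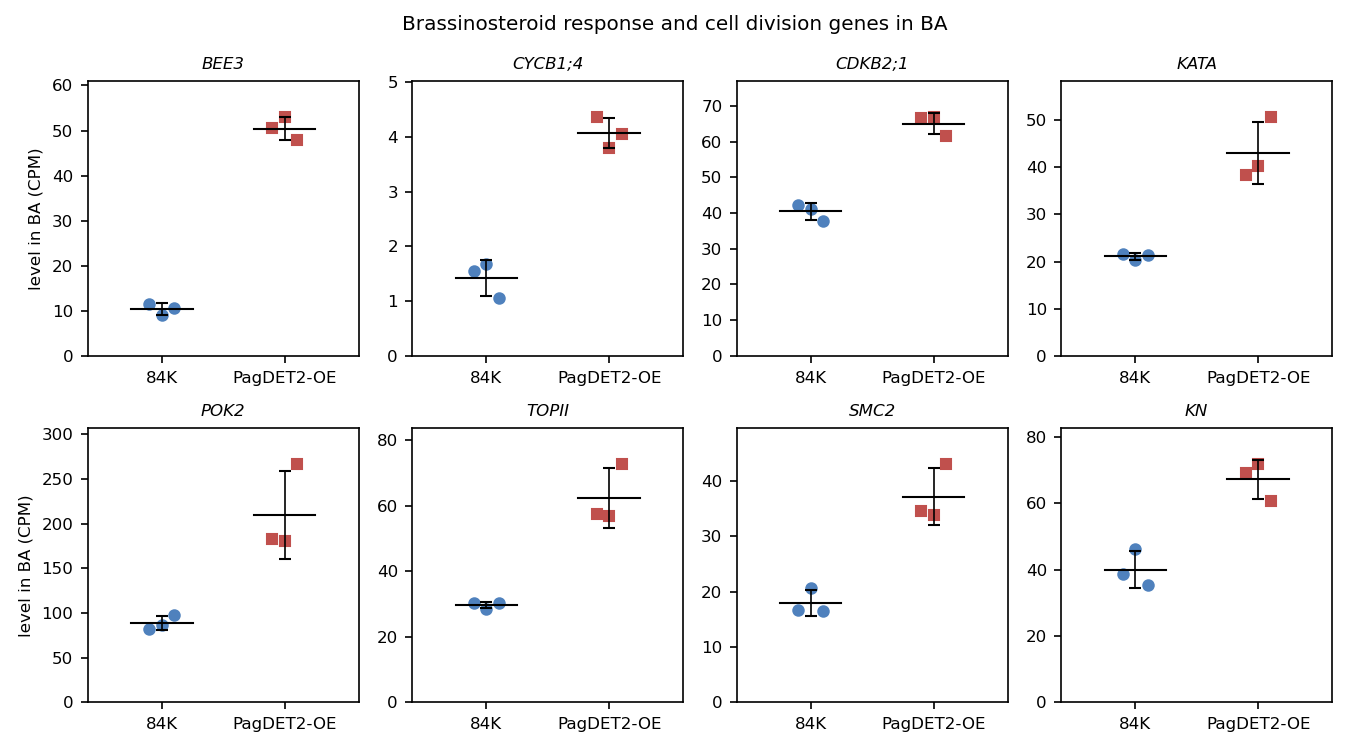
Level in BA (CPM) of *BEE3* and 7 cell division genes in each of 3 libraries of 84K and of *PagDET2*-OE, with a line for the mean and bars for the SD. In all 8 panels the 3 *PagDET2*-OE libraries lie above the 3 of 84K; the wide spread of *POK2* (182, 181 and 267 CPM) comes from replicate 3.

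Called genes of the lignified secondary wall were mostly lower. Of 58 lignin synthesis genes 22 were lower and 2 higher, with a median of -0.44. Of 50 genes for cellulose and xylan of the secondary wall 20 were lower and 6 higher (median -0.27), and of 46 regulators 14 were lower and 0 higher (median -0.27). Of the 3 lists, the regulators held 5 lower DEGs, the lignin list 2 and the cellulose and xylan list 0. The number of lower regulators ranged from 8, without 84K replicate 2, to 16, without 84K replicate 3. The summed xylem marker level, given above, moved with these lists. Of its 68 models 63 also stand in 1 of the 3 lists, and of 3 tested markers outside them 0 were higher and 0 lower. The part of xylem cells or their RNA in the sample in these counts was not tested.

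Lignin genes were lower along the route from phenylalanine to the polymer. *IRX12*, a laccase that polymerises monolignols (Potri.016G112000), was at 16.4, 20.5 and 20.1 CPM in 84K and 8.38, 8.82 and 8.73 CPM in *PagDET2*-OE (log2 fold change -1.14, SE 0.13, adjusted p = 8.46e-05). *CAD*, which makes the monolignol alcohols, was at 271, 261 and 250.3 CPM in 84K and 166, 172 and 150.02 CPM in *PagDET2*-OE (log2 fold change -0.68, SE 0.06, adjusted p = 1.62e-05). *CCoAOMT1*, a methyltransferase of the middle of the route, was at 131, 133 and 130.4 CPM in 84K and 87.2, 84.8 and 85.9 CPM in *PagDET2*-OE (log2 fold change -0.61, SE 0.06, adjusted p = 2.39e-05). For all of them the highest *PagDET2*-OE library was below the lowest 84K library. *HCT* (-0.57), which forms the shikimate esters, and *4CL2* (-0.70), a coenzyme A ligase, were also lower. The most abundant gene of the list, the *PAL1* copy Potri.006G126800 at the entry of the route, was at 401, 413 and 424 CPM in 84K and 409.6, 414 and 424 CPM in *PagDET2*-OE and did not pass (adjusted p = 0.914). The *LAC17* laccase DEG Potri.011G120300, at under 3 CPM (-1.32, adjusted p = 0.0303), did not pass in 5 of the 6 fits that left out 1 library, with adjusted p-values of 0.0541 to 0.118.

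The catalytic subunits of cellulose synthase of the secondary wall were lower too. *CESA4* was at 379, 404 and 418 CPM in 84K and 254, 258 and 286 CPM in *PagDET2*-OE (log2 fold change -0.59, SE 0.06, adjusted p = 3.24e-05) and *CESA7* (Potri.018G103900) at 58.5, 65.4 and 63.1 CPM in 84K and 36.5, 40.2 and 39.3 CPM in *PagDET2*-OE (log2 fold change -0.69, SE 0.08, adjusted p = 7.96e-05). The *IRX9* copies, glycosyltransferases of the xylan backbone, had log2 fold changes of -0.83 (Potri.016G086400) and -0.74 (Potri.006G131000). *CTL2*, a chitinase-like protein linked to cellulose deposition, was at 319, 311 and 340.2 CPM in 84K and 225, 228 and 233 CPM in *PagDET2*-OE (log2 fold change -0.50, SE 0.05, adjusted p = 4.27e-05), while its relative *CTL1* did not pass (-0.14, adjusted p = 0.179). The most abundant member, *DEC*, a glycosyl hydrolase 9A1, was at 368, 402 and 407 CPM in 84K and 349, 353 and 372 CPM in *PagDET2*-OE. It did not pass (-0.13, adjusted p = 0.127), but did without *PagDET2*-OE replicate 3 (adjusted p = 0.0402). The 6 higher members were 4 *FLA12* copies, an *FLA11* copy and a *COBL4* copy, genes of proteins at the cell surface. The *FLA12* copy Potri.004G210600 was at 11.4, 11.4 and 14.4 CPM in 84K and 21.01, 21.03 and 23.1 CPM in *PagDET2*-OE (log2 fold change 0.80, SE 0.12, adjusted p = 0.00084), and the genotypes did not overlap.

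Among regulators, *MYB63*, an activator of lignin genes in Arabidopsis, was at 6.90, 5.05 and 7.06 CPM in 84K and 2.29, 3.39 and 2.13 CPM in *PagDET2*-OE (log2 fold change -1.28, SE 0.23, adjusted p = 0.00286). *ANAC043* (*NST1*), a NAC switch of fibre wall formation, was at 53.0, 46.9 and 51.6 CPM in 84K and 29.9, 31.8 and 31.9 CPM in *PagDET2*-OE (log2 fold change -0.69, SE 0.08, adjusted p = 0.000102). Neither gene had a *PagDET2*-OE library within the 84K range. *MYB46*, the MYB factor below the NAC switches, was at 4.52, 4.26 and 4.06 CPM in 84K and 1.42, 2.15 and 2.56 CPM in *PagDET2*-OE (log2 fold change -1.06, SE 0.24, adjusted p = 0.0132), and it did not pass without 84K replicate 1 (adjusted p = 0.0554), 84K replicate 2 (0.0504) or *PagDET2*-OE replicate 1 (0.0623). *MYB42* was a lower DEG as well (-1.04, adjusted p = 0.00548 at Potri.001G118800). The homeodomain gene *BLH6*, the most abundant regulator of the list, stood at 98.2, 108 and 117 CPM in 84K and 104, 111.1 and 130.1 CPM in *PagDET2*-OE (adjusted p = 0.526).

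**Figure D4:**
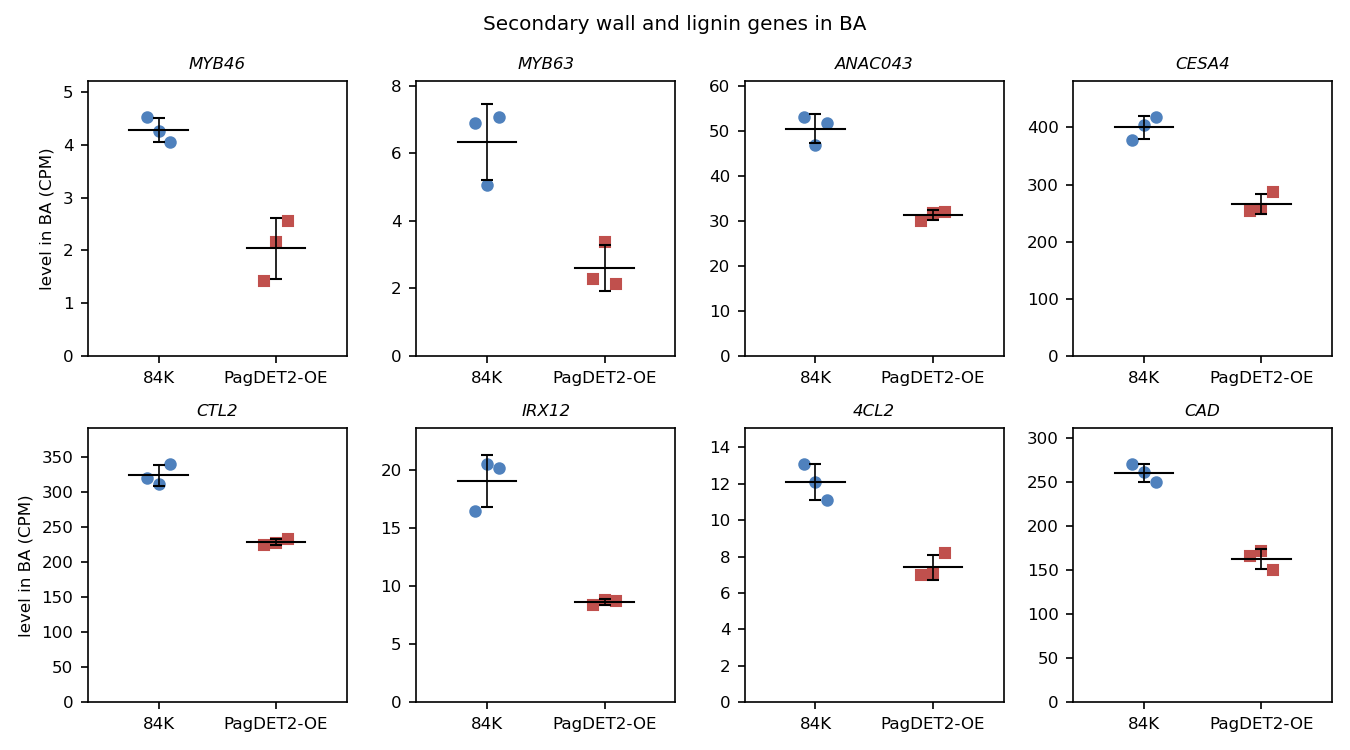
Level in BA (CPM) of 3 regulators (*MYB46*, *MYB63*, *ANAC043*) and 5 synthesis genes of the secondary wall in each of 3 libraries per genotype, with a line for the mean and bars for the SD. All 3 *PagDET2*-OE libraries lie below all 3 of 84K in every panel, with *CESA4* at 254 to 286 against 379 to 418 CPM.

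Of 68 cambium regulators 1 was higher and 5 lower, and the lower count ranged from 2, without 84K replicate 2, to 8, without *PagDET2*-OE replicate 3. *WOX4*, the homeobox gene that keeps cambium cells dividing, was at 196, 194 and 189.6 CPM in 84K and 210.2, 206 and 213 CPM in *PagDET2*-OE (adjusted p = 0.153), and *PXY*, the receptor kinase above it, at 767, 796 and 698 CPM in 84K and 795, 813 and 689.6 CPM in *PagDET2*-OE (adjusted p = 0.869). *ANT*, an AP2 factor of proliferating cells, did not pass either (0.22, adjusted p = 0.158). In the phloem list 4 of 38 were higher and 6 lower, although without 84K replicate 1 these counts were 0 and 3, and the *SUC2* copies, sucrose-proton symporters of companion cells, went opposite ways. Potri.013G115200 was at 257, 240.2 and 248 CPM in 84K and 127, 126 and 127 CPM in *PagDET2*-OE (log2 fold change -0.98, SE 0.05, adjusted p = 2.36e-07), whereas the more abundant Potri.019G085800 was at 892, 924 and 918 CPM in 84K and 1042, 1029.8 and 1049 CPM in *PagDET2*-OE (log2 fold change 0.19, SE 0.04, adjusted p = 0.00503). The second copy did not pass without 84K replicate 1 (adjusted p = 0.0712).

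Hormone lists beside brassinosteroids showed the largest number of higher genes in ethylene, with 19 higher and 7 lower of 80. Its receptors *ETR2* and *ERS* were higher: *ETR2* (Potri.010G074300) was at 94.0, 93.2 and 91.3 CPM in 84K and 169, 167 and 166 CPM in *PagDET2*-OE (log2 fold change 0.85, SE 0.06, adjusted p = 1.33e-06), and *ERS* at 146, 144.9 and 147 CPM in 84K and 213, 221 and 225 CPM in *PagDET2*-OE (log2 fold change 0.59, SE 0.05, adjusted p = 1.49e-05). *EBF1*, the F-box protein that marks EIN3 for degradation, was higher at Potri.006G068500 (0.60, adjusted p = 4.21e-05), and *EIN3*, the central transcription factor, was lower at 434, 438 and 429 CPM in 84K and 327, 330.2 and 340.3 CPM in *PagDET2*-OE (log2 fold change -0.38, SE 0.04, adjusted p = 0.000106). *ERF1*, an ethylene response factor, was the DEG of the list, at 1.19, 1.49 and 1.06 CPM in 84K and 4.79, 5.75 and 4.37 CPM in *PagDET2*-OE (log2 fold change 1.99, SE 0.25, adjusted p = 0.000199). Of 3 called *ACO4* copies, which carry out the last step of ethylene synthesis, 3 were lower.

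Auxin genes were lower more often than higher, 22 against 12 of 153, and 4 of the higher were DEGs. Apart from *ARGOS*, the DEGs were *GH3.1* (1.24, adjusted p = 0.0208), *DFL2* (1.32, adjusted p = 0.0462) and *ABCB4* (1.47, adjusted p = 0.0373). Without 84K replicate 2, *GH3.1*, *DFL2* and *ABCB4* did not pass (adjusted p = 0.103, 0.164 and 0.153). *GH3.1* also failed without 84K replicate 1 (0.0552) or *PagDET2*-OE replicate 2 (0.0648) or 3 (0.0622). *DFL2* also failed without 84K replicate 3 (0.118) or any single *PagDET2*-OE library (0.0814 to 0.11). *ABCB4* also failed without 84K replicate 3 (0.107) or *PagDET2*-OE replicate 1 (0.155) or 3 (0.0506). *LAX3*, an auxin influx carrier, was at 55.0, 56.5 and 63.2 CPM in 84K and 34.0, 34.5 and 36.4 CPM in *PagDET2*-OE (log2 fold change -0.74, SE 0.08, adjusted p = 6.65e-05). *IAA29*, a repressor of auxin response, was at 61.5, 62.7 and 60.1 CPM in 84K and 32.2, 36.7 and 30.02 CPM in *PagDET2*-OE (log2 fold change -0.90, SE 0.08, adjusted p = 2.11e-05). Both were below the 84K range in all *PagDET2*-OE libraries. The efflux carrier *PIN3* was lower at 2 copies (log2 fold change -0.41 at each), whereas *PIN5* (0.94, adjusted p = 0.000328) and *PIN4* (0.88, adjusted p = 0.00757) were higher. The count of lower auxin genes was 14 without 84K replicate 1, 84K replicate 2 or *PagDET2*-OE replicate 1, and that of higher ones was 4 without 84K replicate 2, 7 without 84K replicate 3, 6 without *PagDET2*-OE replicate 1 and 5 without *PagDET2*-OE replicate 2.

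For cytokinin, 9 of 56 genes were higher, or 4 without 84K replicate 2, and 3 lower. The receptor *AHK4* was higher at 2 copies (0.43 and 0.41). *AHP4*, a phosphotransfer protein, had 55 counts over the 84K libraries and 0 over those of *PagDET2*-OE, which is at least 17.4-fold lower with 3 counts as the floor over the group. Gibberellin genes were called at 3 higher and 2 lower of 41, with *GA2OX8*, an enzyme that inactivates gibberellins, lower at 4.997, 4.06 and 5.30 CPM in 84K and 2.07, 2.67 and 2.34 CPM in *PagDET2*-OE (log2 fold change -1.01, SE 0.22, adjusted p = 0.00873), a call that was not made in the fit of all 18 libraries (adjusted p = 0.0501). Jasmonate and wounding genes were called at 4 higher and 8 lower of 82, with 5 lower without 84K replicate 1 and 3 without 84K replicate 2.

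Genes that loosen or modify the primary wall rose in part. Of 33 xyloglucan genes (*XTH* and relatives) 9 were higher, or 5 without 84K replicate 2, and 2 lower, and the *EXGT-A4* copy Potri.003G159700, a xyloglucan endotransglucosylase, was at 62.2, 63.3 and 63.7 CPM in 84K and 116, 118 and 122 CPM in *PagDET2*-OE (log2 fold change 0.91, SE 0.06, adjusted p = 1.6e-06). Expansins, which loosen walls under acid, were called at 3 higher and 2 lower of 15. Their DEG *EXP8* was at 1.90, 0.991 and 1.77 CPM in 84K and 3.59, 4.82 and 3.94 CPM in *PagDET2*-OE (log2 fold change 1.41, SE 0.27, adjusted p = 0.00458). Pectin methylesterases and pectate lyases had 14 higher and 8 lower of 84, and all 4 of their DEGs were *PME3* models, annotated as pectin methylesterases. Potri.001G162500 was at 5.71, 6.04 and 10.1 CPM in 84K and 18.1, 20.9 and 19.2 CPM in *PagDET2*-OE (log2 fold change 1.39, SE 0.19, adjusted p = 0.000559) and the neighbouring Potri.001G162600 at 5.71, 5.94 and 6.62 CPM in 84K and 13.9, 14.9 and 13.8 CPM in *PagDET2*-OE (log2 fold change 1.22, SE 0.13, adjusted p = 7.77e-05). These neighbours may share reads, so their counts are not separate evidence. Another *PME3* model, Potri.003G002601, had 0 counts in 84K and 58 over the *PagDET2*-OE libraries, at least 20.4-fold higher.

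The resistance-like receptors with NB-ARC or TIR domains, intracellular proteins that detect pathogen molecules, formed the list with the most tested members. Of 341 tested, 49 were higher, 12 of them DEGs, and 0 lower, with a median of 0.34. The summed level of the list was 2434, 2412 and 2561 CPM in 84K and 2872, 2674 and 3483 CPM in *PagDET2*-OE, where replicate 3 was the highest. This count depended on single libraries: it was 20 without 84K replicate 1, 18 without 84K replicate 2, 33 without *PagDET2*-OE replicate 1 and 30 without *PagDET2*-OE replicate 3, and it was 74 without replicate 3 of both genotypes. Members are often near-identical tandem copies between which the counting could split reads.

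Potri.014G064801, described as a disease resistance protein, was at 18.2, 18.8 and 19.8 CPM in 84K and 34.5, 34.7 and 46.3 CPM in *PagDET2*-OE (log2 fold change 1.02, SE 0.12, adjusted p = 0.000113). *RLM3* (Potri.T050200) was at 4.403, 4.66 and 4.15 CPM in 84K and 8.60, 9.13 and 11.2 CPM in *PagDET2*-OE (log2 fold change 1.13, SE 0.17, adjusted p = 0.000704). The genotypes were apart at both. *ADR1-L1*, a helper receptor and the most abundant member, was at 99.6, 106 and 109 CPM in 84K and 104, 96.8 and 100.3 CPM in *PagDET2*-OE (adjusted p = 0.593). Among 38 pathogenesis-related proteins and chitinases 6 were higher and 6 lower. *HEL* (2.79, adjusted p = 0.00177) and *PRB1* (2.19, adjusted p = 0.00735) were higher from levels under 1 CPM. Of 56 WRKY factors, regulators of defence genes, 7 were higher, or 4 without 84K replicate 1 or 2, and 4 lower, and both *WRKY70* copies were DEGs (1.96 at Potri.006G109100 and 1.46 at Potri.016G137900).

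Flavonoid synthesis genes were higher at 11 and lower at 0 of 43, with a median of 0.23. Summed over the list they stood at 970.3 to 984 CPM in 84K and 1217 to 1279 CPM in *PagDET2*-OE. A chalcone-flavanone isomerase family gene, Potri.005G114100, was at 9.16, 8.32 and 5.74 CPM in 84K and 16.3, 17.2 and 15.2 CPM in *PagDET2*-OE (log2 fold change 1.08, SE 0.16, adjusted p = 0.000652) and was the DEG. *DFR*, a reductase towards anthocyanins and tannins, was at 6.78, 7.63 and 7.33 CPM in 84K and 11.97, 12.4 and 14.6 CPM in *PagDET2*-OE (log2 fold change 0.84, SE 0.14, adjusted p = 0.00157). *ANS*, the next enzyme, was at 39.5, 37.7 and 42.2 CPM in 84K and 59.0, 59.6 and 56.8 CPM in *PagDET2*-OE (log2 fold change 0.55, SE 0.07, adjusted p = 0.000329). All *PagDET2*-OE libraries were above 84K at these genes, and 6 *CYP75B1* models, flavonoid 3′-hydroxylases that may share reads, were among the 11.

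The genes of metals and superoxide dismutases were called in equal number, 12 higher and 12 lower of 97, and the superoxide dismutases went opposite ways. *FSD2*, a chloroplast enzyme that uses iron, was at 22.4, 22.4 and 21.1 CPM in 84K and 68.9, 61.5 and 68.1 CPM in *PagDET2*-OE (log2 fold change 1.59, SE 0.08, adjusted p = 1.03e-07). The copper/zinc enzymes were lower: *CSD1* (Potri.005G044400) was at 293, 280.1 and 273 CPM in 84K and 193, 196 and 189 CPM in *PagDET2*-OE (log2 fold change -0.55, SE 0.05, adjusted p = 2.05e-05), its second copy had a log2 fold change of -0.67, and *CSD2* one of -0.40 (adjusted p = 0.00355). *CCS*, the chaperone that delivers copper to them, was lower at both copies (-0.73 and -0.70). Both *ARPN* copies, plantacyanin blue copper proteins, were lower DEGs, and Potri.001G209300 was at 82.6, 87.5 and 80.3 CPM in 84K and 41.9, 41.8 and 40.1 CPM in *PagDET2*-OE (log2 fold change -1.02, SE 0.07, adjusted p = 1.91e-06). Outside this list, and not in its counts, *ATX1* and *COX17* encode other copper chaperones and were named after their values were seen. Copper chaperones were not counted as a set. *ATX1* was higher, at 106.8, 96.1 and 79.9 CPM in 84K and 269, 256 and 215 CPM in *PagDET2*-OE (log2 fold change 1.39, SE 0.12, adjusted p = 0.000538). *COX17* of mitochondria was higher at about 1 to 4 CPM (1.84, adjusted p = 0.000665). *COX17* did not pass in the fit of all 18 libraries (adjusted p = 0.157). Within the list, *YSL3*, a carrier of metal-nicotianamine complexes, was at 78.2, 86.1 and 93.7 CPM in 84K and 162, 171 and 176 CPM in *PagDET2*-OE (log2 fold change 0.98, SE 0.07, adjusted p = 3.39e-06).

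Nitrogen genes were called at 6 higher and 7 lower of 41, and both counts were lowest without 84K replicate 2, at 2 and 3. *NRT1.5*, known in Arabidopsis for loading nitrate into the xylem, was at 5.71, 4.36 and 8.92 CPM in 84K and 24.7, 27.7 and 25.4 CPM in *PagDET2*-OE (log2 fold change 2.02, SE 0.20, adjusted p = 0.00017), without overlap between genotypes. *GLN1;1*, a glutamine synthetase and the most abundant gene of the list, was at 336, 339.5 and 351 CPM in 84K and 322, 322 and 333 CPM in *PagDET2*-OE (adjusted p = 0.364). Nuclear genes of the photosystems and antennae were higher at 11 and lower at 1 of 69, with the higher count at 4 without 84K replicate 2 and at 7 without *PagDET2*-OE replicate 2.

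Gene models whose descriptions are those of plastid or mitochondrial genes (*Ycf1*, *Ycf2*, ribosomal proteins and photosystem subunits) were higher at 19 of 106 tested and lower at 0, all 19 as DEGs, with a median of 1.63. They took 0.172%, 0.173% and 0.221% of the counts of the 84K libraries and 0.3001%, 0.3002% and 0.492% of those of *PagDET2*-OE, so the groups did not overlap and *PagDET2*-OE replicate 3 was the highest. The share of organelle genomes or their transcripts in the RNA was not measured apart from these models. The number called moved from 7 to 26 when 1 library was left out. A *Ycf1* model, Potri.013G075200, was at 1.67, 1.49 and 2.65 CPM in 84K and 8.49, 7.80 and 12.99 CPM in *PagDET2*-OE (log2 fold change 2.30, SE 0.27, adjusted p = 0.000136). A ribosomal protein L22 model, Potri.013G140300, had 0 counts in 84K and 105 in *PagDET2*-OE, at least 36.9-fold higher, and did not pass without replicate 3 of both genotypes (adjusted p = 0.095). Apart from this list, of 2 undescribed models among the 10 largest increases, Potri.003G030450 was at 5.59, 6.14 and 10.4 CPM in 84K and 23.6, 24.6 and 35.7 CPM in *PagDET2*-OE and Potri.013G141600 at 4.403, 5.15 and 8.48 CPM in 84K and 23.7, 19.8 and 38.6 CPM in *PagDET2*-OE, with replicate 3 the highest in both genotypes. Potri.013G141600 did not pass without 84K replicate 1 (adjusted p = 0.0893), 84K replicate 2 (0.114) or *PagDET2*-OE replicate 1 (0.0622).

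The genotype effect in BA was set against that in XY and PS in a fit of all 18 libraries. It differed from XY at 3428 of 25726 genes (13.3%), 1652 (6.42%) above and 1776 (6.90%) below, and from PS at 2384 genes (9.27%), 1219 (4.74%) above and 1165 (4.53%) below. The fit treats the domains as independent. The study's text can be read as sampling all domains from shared trees, which the labels do not record. Of the 294 BA DEGs, the effect at 106 differed from that in XY and at 136 from that in PS. The DEGs were picked with the BA libraries that also enter the difference, which favours a difference. Of the 211 higher DEGs 46 were also higher in XY and 34 lower there; of the 83 lower 24 were also lower in XY and 2 higher.

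Secondary wall genes often differed from XY. At 24 of 58 lignin genes the effect in BA was below that in XY and at 3 above; at 32 of 50 cellulose and xylan genes it was below and at 0 above. Against PS, 19 lignin and 20 cellulose and xylan genes were below. Of the 22 lignin genes lower in BA, 21 differed from XY and 8 were higher in XY. Of the 20 lower cellulose and xylan genes all 20 differed from XY and 14 were higher there. Genes picked as lower in BA are more apt to differ, since the same BA libraries enter the difference. The counts over all tested members were not picked in this way. The lists themselves were chosen with earlier results of these data known. *CESA4* changed by -0.03 (log2) in XY and 0.08 in PS, against -0.59 in BA (difference -0.57, SE 0.09, adjusted p = 3.37e-05 for BA minus XY). *CAD* changed by 0.20 in XY (difference -0.90, SE 0.07, adjusted p = 1.11e-09), and *IRX12* by 0.22 (difference -1.38, SE 0.13, adjusted p = 3.2e-08). The list medians were -0.46 in BA, 0.11 in XY and 0.00 in PS for lignin, and -0.29, 0.34 and 0.19 for cellulose and xylan.

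At 9 of 24 chromosome condensation genes the effect in BA was above that in XY, at 7 above that in PS, and at 0 below either. *TOPII* at Potri.001G264000 had a log2 fold change of 0.00 in XY (difference 1.06, SE 0.19, adjusted p = 0.000354), and *SMC2* had -0.41 there (difference 1.44, SE 0.29, adjusted p = 0.00109). Kinesins were less uniform, with 22 above and 19 below XY, and 25 above and 4 below PS. Mitotic cyclins and kinases differed at few genes, 5 above and 5 below XY and 2 above and 2 below PS. Of the 28 higher in BA 10 were also higher in XY, *CDKB2;1* was at 0.50 in XY and 0.44 in PS, and its difference from XY did not pass (adjusted p = 0.561).

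NB-ARC and TIR receptors were above XY at 51 genes and below at 2, and above PS at 41 and below at 0, with list medians of 0.32 in BA, -0.28 in XY and -0.22 in PS. None of the 49 higher in BA was higher in XY, and 7 were lower there. Organelle genome-like models had medians of 1.61 in BA, -4.41 in XY and -0.76 in PS, and 18 of the 19 higher in BA were lower in XY. Their share of counts in XY was 0.241% to 0.256% in 84K and 0.0672% to 0.0718% in *PagDET2*-OE. Flavonoid genes had medians of 0.21 in BA, 0.24 in PS and -0.44 in XY. Of the 5 higher brassinosteroid response genes 4 were also higher in XY and 1 in PS, and *BEE3* Potri.012G055700 had 2.54 in XY (difference -0.27, SE 0.23, adjusted p = 0.495) and 0.93 in PS (difference 1.34, SE 0.29, adjusted p = 0.00424). Ethylene genes that were higher in BA were also higher in XY at 13 of 19.

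**Figure D5:**
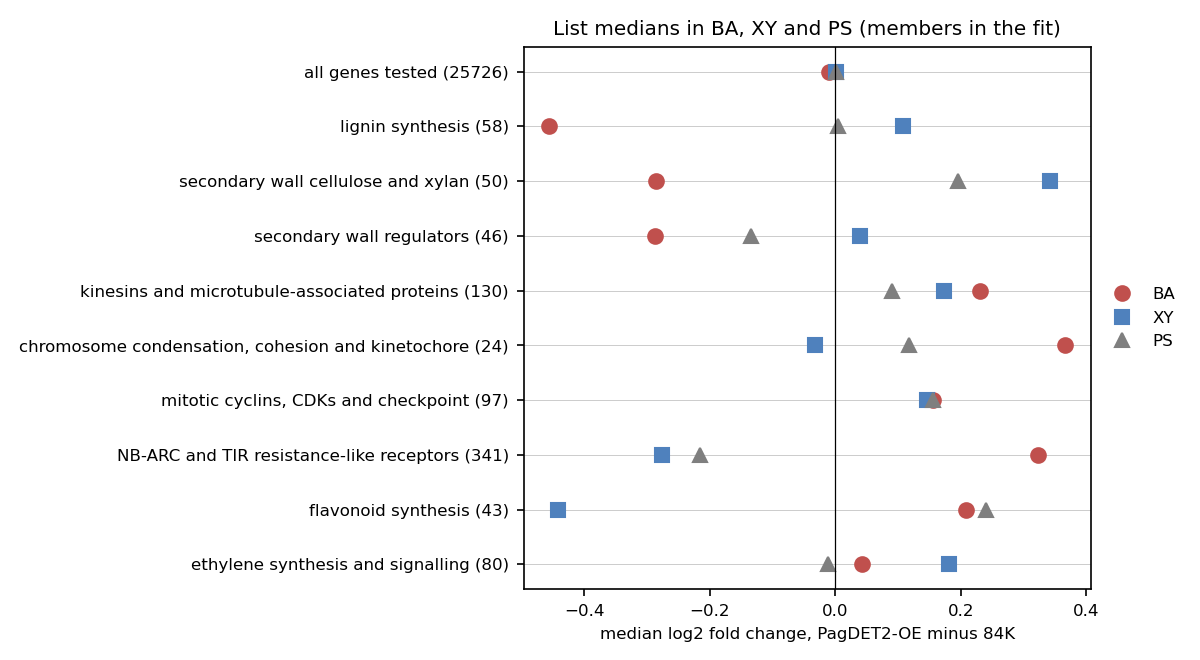
Median log2 fold change (*PagDET2*-OE minus 84K) of 9 gene lists and of all genes in the fit of 18 libraries, in BA, XY and PS, with the number of members in brackets. Lignin (-0.46 against 0.11) and cellulose and xylan (-0.29 against 0.34) lie on opposite sides of 0 in BA and XY, and mitotic cyclins lie close together in the 3 domains.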

How the data were processed

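RNA of 18 samples was sequenced by the authors, and the 6 BA libraries are the subject here. Alignment by the authors used HISAT2 (version 2.0.4) and the *P. trichocarpa* genome, and fragments were counted per gene with StringTie (version 1.3.0); strandedness is not given in the sources used here. The deposited counts were whole numbers and not normalised, and the deposited FPKM were computed by the authors from such counts with a script. FPKM served only for sums over markers. The deposited table also pairs 15091 of 42950 gene models with an Arabidopsis symbol.

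Counts of the 6 libraries were filtered with filterByExpr (minimum count 10, minimum total 15), scaled by TMM and tested with the robust quasi-likelihood test of edgeR (version 4.0.16, R 4.3.3) and p-values were adjusted by Benjamini-Hochberg over the 23651 genes that passed the filter. CPM used TMM-scaled totals, and a fold against 0 counts used a floor of 3 counts. The call of a DEG took an adjusted p up to 0.05 together with a change of 2-fold or more. Differences between domains were contrasts in a fit of 18 libraries. The test was checked on simulated data, where the share of false calls was somewhat above the nominal rate. DESeq2 (version 1.42.0) was an alternative.

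The gene lists were chosen with earlier results of these data known, and unrelated families that matched by symbol were removed after the table was opened. Named genes were *DET2*, the 10 highest and 10 lowest log2 fold changes among DEGs with a mean of at least 5 CPM and no overlap (organelle genome-like genes left out), up to 4 DEGs of each list or else the 2 members with the lowest adjusted p, its most abundant member, and 5 DEGs for each contrast of domains. Others were named after their values were seen, among them *POK1*, *POK2*, *KN*, *CDKB2;1*, *CAD*, *CESA7*, *IRX9*, *CSD1*, *ATX1*, *COX17*, *ETR2* and *LAX3*.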

Additional observations from a re-analysis of the deposited data

Results flagged for a closer look

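The genotype effect of 106 of the BA DEGs differed from that in XY and of 136 from that in PS, each by the test of the difference in the edgeR fit of 18 libraries with Benjamini-Hochberg adjustment. As said above, the DEGs were picked with BA libraries that also enter this test. The groups have 3 libraries each, too few for a search for single outlying libraries.

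The lowest adjusted p-values against XY belonged to 4 organelle genome-like models and an undescribed model, all higher in BA and lower in XY. The difference was 7.90 for the *Ycf1* model Potri.013G075200 (adjusted p = 1.42e-12), 7.57 for the ribosomal protein L22 model Potri.T033833 (adjusted p = 1.42e-12), 7.24 for the photosystem I subunit model Potri.T058850 (adjusted p = 2.71e-10), 6.72 for the *Ycf1* model Potri.T103100 (adjusted p = 1.35e-09) and 5.98 for the undescribed Potri.003G030450 (adjusted p = 5.05e-10). The share of counts on organelle genome-like models moved with them, and its part in these values was not tested.

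Against PS, the HXXXD-type acyltransferase Potri.016G112400 was 3.12 above (adjusted p = 2.27e-08), the expansin *EXP8* (Potri.019G057500) 2.91 above (adjusted p = 2.57e-07) and the major facilitator transporter Potri.001G027100 2.29 above (adjusted p = 6.93e-08). *BGLU32* (Potri.005G059500) had a difference of -4.04 (adjusted p = 8.49e-08), and the aluminium-induced protein gene Potri.011G049900 one of -2.25 (adjusted p = 2.73e-08); the former had 0.19 and the latter 1.09 in PS.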

How the results depend on the processing

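The counts above were recomputed with DESeq2, with RLE scaling, without a filter on low counts, without robust estimation, without the organelle genome-like genes, in a fit of all 18 libraries, with the replicate number as a block, and without each library; after the data were seen, replicate 3 of both genotypes was also left out. No log2 fold change of a named gene that was called changed its direction. Of 195 named genes tested, 163 kept their call under the 7 alternatives with all 6 libraries and 145 also without each library. DESeq2 called 806 genes lower. The fit of 18 libraries gave 458 DEGs (318 higher, 140 lower). Without replicate 3 of both genotypes there were 527 DEGs (362 higher, 165 lower), 5293 genes at any fold (2706 higher, 2587 lower) and 74 higher NB-ARC and TIR genes. Without 1 library, DEGs ranged from 227 to 342 (165 to 253 higher, 62 to 117 lower), genes at any fold from 1435 to 2817 (750 to 1376 higher, 685 to 1441 lower), higher NB-ARC and TIR genes from 18 to 44, higher chromosome condensation genes from 5 to 9 and lower secondary wall regulators from 8 to 16; differences from PS ranged from 1653 to 2492 genes (822 to 1280 above, 831 to 1212 below). The number of organelle genome-like genes called was 53 with DESeq2, 64 in the fit of 18 libraries and 55 without robust estimation, against 19.

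The replicate numbers of the genotypes were not taken as pairs, since the correlation of deviations from the group means was 0.103, 0.0725 and 0.150 for equal numbers and not above 0.1 for every pair, although each library correlated best with its own number. With the replicate block there were 413 DEGs (319 higher), of which 290 were shared, 4348 genes at any fold (2390 higher, 1958 lower), of which 2722 were shared, 79 higher NB-ARC and TIR genes and 78 organelle genome-like genes. With the replicate block within each domain, 3812 genes differed between BA and PS (1948 above, 1864 below). Each genotype has 3 libraries, the transgenic lines are unnamed, and reads of a hybrid were counted on the genome of another species, the effect of which was not measured. The cause of these shifts was not tested.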
